A study of Mus musculus with 5 samples.

Results

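The 591 genomic places described here were called as IRF8 peaks in mouse B cells kept for 72 h with lipopolysaccharide (LPS), and no other peak list of the series holds them. They were selected on the deposited lists: a peak of the IRF8 72 h list on chromosomes 1 to 19 or X was kept when it overlapped no interval of the other 4 lists by a single base. They made up 591 of the 1048 IRF8 72 h peaks on those chromosomes, and of 5590 peaks and intervals in all 5 lists. The other 457 peaks of the list overlapped at least 1 other list and are called the other IRF8 72 h peaks.

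All cells came from C57BL/6 mice. Naive splenic B cells were cultured with 10 µg/ml LPS for 48 h or 72 h, and chromatin immunoprecipitation and sequencing (ChIP-seq) was done with antibody M-17 against IRF4 or antibody C-19 against IRF8. The fifth list holds IRF8 intervals from germinal centre (GC) B cells sorted on day 13 after immunisation with the hapten conjugate NP-KLH; these cells were frozen, handled by a service company and analysed with another peak caller. Each group was 1 library, so no p-value compares conditions, and each one compares sets of places in these lists.

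IRF8 and IRF4 belong to the interferon regulatory factors, a family of transcription factors, and B cells express both. Their DNA-binding domain reads GAAA repeats. IRF8 binds the interferon-stimulated response element (ISRE) with IRF family partners. With the ETS factors PU.1 or Spi-B it binds a composite ETS-IRF element (EICE). With BATF and JUN, both factors can bind composite AP-1-IRF elements. ISREs are known from genes induced by interferon, and EICEs from genes of B cells and myeloid cells.

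The letters found within 100 bp of a peak centre, a window of 201 bases, differ among these places. All sequences below are from the mm9 assembly (NCBIM37), 5′ to 3′, on the strand given. The first 3 are the places with the highest tag counts among single-copy members with an ISRE core, searched as GAAANNGAAA on both strands, a gene start within 50 kb and no tandem run; Ncoa3 is tied at 42.4 normalised tags with Lcmt1, not shown. Capitals mark the ISRE core. They lie at chr12:16877811-16877871 (plus strand, intergenic near Rock2), chr10:88047339-88047399 (minus strand, Mybpc1 intron) and chr2:165807032-165807092 (minus strand, near Ncoa3 and inside introns of Gm11463 and Gm11464).
Rock2: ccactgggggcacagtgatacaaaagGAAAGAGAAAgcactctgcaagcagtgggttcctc
Mybpc1: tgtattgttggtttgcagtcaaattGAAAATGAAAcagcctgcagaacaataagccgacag
Ncoa3: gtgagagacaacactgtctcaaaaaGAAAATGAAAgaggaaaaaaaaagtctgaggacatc

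The next 3 were picked in the same way among members with an EICE, searched as GGAANNGAAA, and capitals mark it. They lie at chr1:182518057-182518117 (plus strand, Parp1 coding exon), chr12:92995290-92995350 (plus strand, Ston2 intron) and chr13:59610045-59610105 (minus strand, Agtpbp1 intron). Ston2 and Agtpbp1 are tied at 45.7 normalised tags with Tmem68, whose place also has an EICE and is not shown for its tandem run of 38 bases. All 3 hold the same 10 letters.
Parp1: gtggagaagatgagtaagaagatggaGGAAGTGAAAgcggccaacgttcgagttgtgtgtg
Ston2: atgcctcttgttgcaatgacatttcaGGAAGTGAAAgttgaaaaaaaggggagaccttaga
Agtpbp1: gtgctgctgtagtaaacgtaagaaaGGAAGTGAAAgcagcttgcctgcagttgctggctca

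Shorter stretches of 29 bases show the element at 4 places next to interferon-stimulated, B lineage or myeloid genes. Capitals mark 1 ISRE core in the Trim21 and Etv6 sequences and an EICE in the Trim25 and Ncf4 sequences. The places are chr7:109713964-109713992 (minus strand, Trim21 promoter), chr11:88860703-88860731 (minus strand, Trim25 promoter), chr6:134175736-134175764 (plus strand, Etv6 intron) and chr15:78087808-78087836 (plus strand, Ncf4 intron). In the Trim21 sequence a second ISRE core overlaps the first, and the Etv6 window also held 2 matches. Ncf4 is tied at 29.4 normalised tags with Tlr1, not shown.
Trim21: ctctgagagGAAACTGAAAgtgaaatttg
Trim25: agcgaggaaGGAATCGAAActgaacagga
Etv6: aagtcaaaatGAAATAGAAAcaagaagtg
Ncf4: ggctggttgtGGAAGTGAAActagggttg

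Another kind of place has a run of alternating C and A, called a CA repeat, near its centre. The 3 examples have the highest tag counts among single-copy members with such a run and a gene start within 50 kb. Single-copy here describes the window by its median word of 24 bases and does not show that the run itself is unique. The examples were added after the data had been seen. Capitals mark the run. They lie at chr4:32474960-32475060 (plus strand, Bach2 intron), chr10:75778258-75778358 (plus strand, Dip2a intron) and chr11:57572588-57572688 (minus strand, Galnt10 intron, nearest to the start of Sap30l).
Bach2: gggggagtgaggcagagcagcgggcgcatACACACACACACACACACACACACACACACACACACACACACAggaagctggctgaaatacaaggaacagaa
Dip2a: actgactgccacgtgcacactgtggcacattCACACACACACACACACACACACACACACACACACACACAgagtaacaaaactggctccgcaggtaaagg
Sap30l: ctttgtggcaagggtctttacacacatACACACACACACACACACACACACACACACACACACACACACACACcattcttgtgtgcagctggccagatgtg

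The strength of a peak is the authors' normalised tag count, the tags in the peak scaled to a library of 10000000 tags. It comes from the same tags from which the list was called, so it is tied to the selection and is given as a description with no test. The 591 places ranged from 22.8 to 91.3, with a median of 29.4 and quartiles of 26.1 and 32.6. The other IRF8 72 h peaks ranged from 22.8 to 4710.6, with a median of 35.9 and quartiles of 32.6 and 48.9. The 2 ranges overlapped, and the highest values all belonged to the other peaks.

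In whole tags, the places held 7 to 28 tags with a median of 9, and the caller's threshold at a false discovery rate of 0.001 was also 9 tags. The findPeaks score was 9 or more at every place, while 19 places held 7 tags and 143 held 8 tags by the normalised count. Of the 591 places, 375 (63.5%) held 9 tags or fewer, against 106 of the 457 other peaks (23.2%). At the upper end, 5 places (0.846%) held 20 tags or more, against 57 other peaks (12.5%). A single peak of 9 tags has an exact Poisson 95% interval of 13.4 to 55.7 normalised tags. It describes 1 peak and does not measure the difference between the medians of the sets. Intervals cover counting error only.

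**Figure D1:**
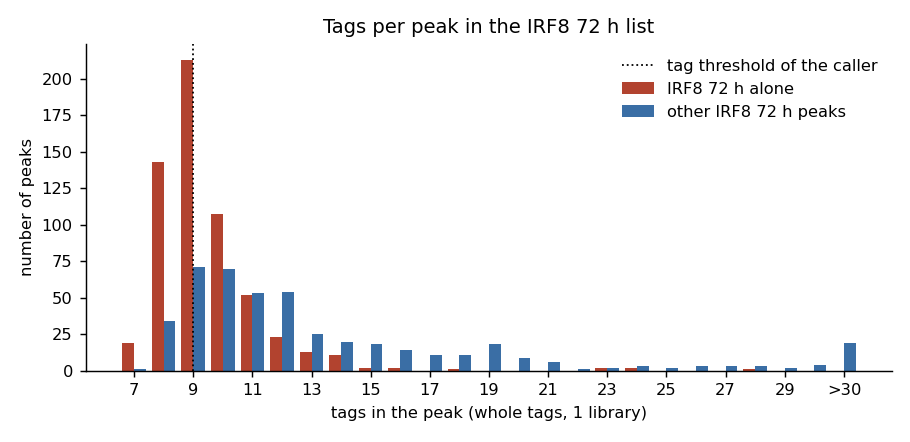
Number of IRF8 72 h peaks (vertical axis) by whole tags in the peak (horizontal axis, with all peaks over 30 tags in the last bar) for the 591 places in no other list (red) and the 457 other peaks (blue). The dotted line marks the caller's threshold of 9 tags; 213 red and 71 blue peaks hold exactly 9 tags.

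The other values of the caller lay closer together. The fold over the surrounding 10000 bp had a median of 13.15 in the 591 places and 15.44 in the other peaks. The focus ratio, the fraction of tags on the proper side of the peak centre, had medians of 0.818 and 0.833. The clonal fold, which compares tags with tag positions, had a median of 0.99 in both sets. At most 1 tag per position was kept, which holds this value near 1 in most peaks, so it says little about the sets.

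The lists of the other LPS libraries had their own thresholds, at 29.4 normalised tags for IRF4 48 h, 26.6 for IRF4 72 h and 25.1 for IRF8 48 h. The lowest counts in those lists were below the thresholds, at 23.6, 18.6 and 20.6. The IRF8 72 h count lay above the thresholds at 216 (36.5%), 429 (72.6%) and 572 (96.8%) of the 591 places in that order. For the other IRF8 72 h peaks the shares were 76.8%, 92.3% and 99.8%. The 213 places with 9 tags fell just under the IRF4 48 h threshold and print as the same 29.4. The tags of the other libraries at these places were not analysed here. The 4 LPS libraries held 3065426 to 4375858 tags, of which 0.18% to 0.82% fell in peaks. In the header of the IRF8 72 h list the tag set carries the label of a second replicate, and whether the tags come from a second or a merged library is not given in the sources used here.

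Few places lay close to the edge of the rule. Just inside it were 4 places at 141 bp (near Fry, 35.9 normalised tags), 436 bp (near Isg20, 26.1), 576 bp (in Il10, 26.1) and 579 bp (in Tnf, 26.1) from the nearest interval of another list. Just outside it were 4 peaks that overlapped another list by 102 bp (near Itga4, 32.6), 110 bp (near Cuedc1, 35.9), 112 bp (near Antxr2, 26.1) and 160 bp (near Vrk1, 29.4). Within 1000 bp of another interval lay 6 places, all next to the GC list. Within 50 kb lay 146 places (24.7%), where 10.8% of windows spaced every 20000 bp over the same chromosomes did.

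ISRE cores and EICEs were less frequent in the 591 places than in the other IRF8 72 h peaks and more frequent than in the DNA next to them. An ISRE core was found in 47 of 591 places (7.95%) and in 80 of 456 other peaks with a complete window (17.5%), an odds ratio of 0.406 (two-sided Fisher's exact test, adjusted p = 9.695e-06). An EICE was found in 76 places (12.9%) and in 155 other peaks (34.0%), an odds ratio of 0.287 (exact, adjusted p = 5.627e-15). Either element was present in 119 places (20.1%) and 219 other peaks (48.0%). P-values of these and the following planned tests in the main setting were adjusted over 16 tests by the Benjamini-Hochberg method. Those of each alternative setting were adjusted over the tests run in that setting.

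The windows 2000 bp downstream of the same places held an ISRE core in 1.86% and an EICE in 2.54%. Both differed from the places themselves (two-sided exact McNemar test, adjusted p = 6.501e-06 and 2.409e-10). Of 127769 windows of the same length over the genome, 3.38% held an ISRE core and 2.15% an EICE.

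The AP-1 site, TGACTCA or TGAGTCA, was found in 29 places (4.91%) and in 55 other peaks (12.1%), an odds ratio of 0.376 (Fisher's exact test, adjusted p = 6.761e-05). Its share in the flanks was 3.05%, and this difference did not pass the test (exact McNemar, adjusted p = 0.144). The PU.1-type ETS site GAGGAAGT was found in 28 places (4.74%) and in 45 other peaks (9.87%), an odds ratio of 0.454 (Fisher's exact test, adjusted p = 0.00204), and in 1.35% of the flanks (exact McNemar, adjusted p = 0.00191). An EICE can overlap this ETS site by up to 6 letters, so both can count the same bases. None of the 4 elements was present in 432 places (73.1%), against 179 other peaks (39.3%).

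**Figure D2:**
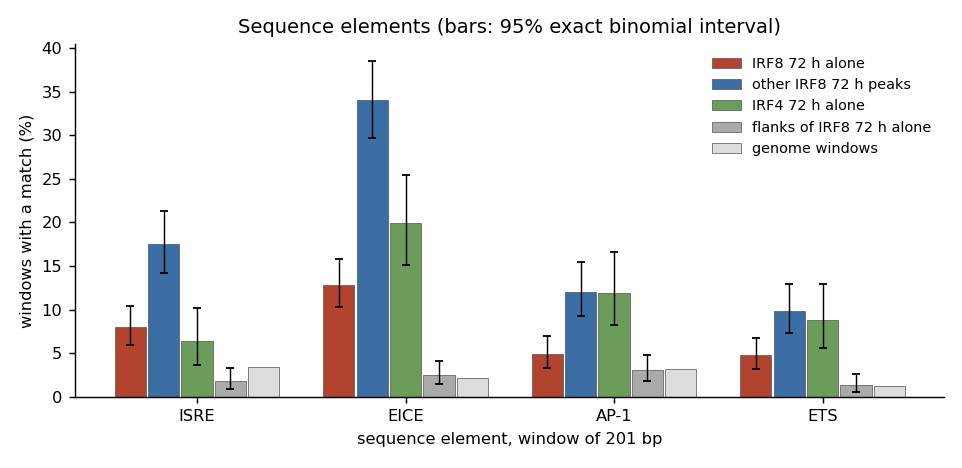
Share of 201 bp windows (vertical axis, percent) with an ISRE core, EICE, AP-1 or ETS site (horizontal axis) in the 591 places, the other IRF8 72 h peaks, the IRF4 72 h peaks in no other list, the flanks of the 591 places and windows over the genome; error lines are 95% exact binomial intervals and are not drawn for the genome windows. The EICE share of the 591 places is 12.9%, between 2.54% in their flanks and 34.0% in the other peaks.

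The ISRE difference moved with overlap of the GC list. Among the other IRF8 72 h peaks, 63 of the 202 that overlapped the GC list held an ISRE core (31.2%), and 17 of the 254 that overlapped LPS lists alone did (6.69%), beside 7.95% of the 591 places. When the GC list was left out of the rule, the ISRE share was 12.8% in the enlarged set and 10.8% in the rest, a difference in the opposite direction that did not pass the test (Fisher's exact test, adjusted p = 0.424). The EICE was found in 34.7% of the peaks that overlapped the GC list and in 33.5% of those that overlapped LPS lists alone.

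The shares also moved with the tags in the peak, and the sets differ in tags. At 9 tags or fewer an ISRE core was found in 18 of 375 places (4.8%) and 29 of 106 other peaks (27.4%). At 10 or 11 tags the shares were 11.3% and 13.8%, and at 12 to 14 tags 17% and 18.4%. For the EICE the shares were 11.5% and 28.3% at 9 tags or fewer, 13.2% and 39.0% at 10 or 11 tags, and 21.3% and 38.8% at 12 to 14 tags. Only 10 places held 15 tags or more, of which 3 (30%) held an ISRE core and 2 (20%) an EICE. Among the 129 other peaks with 15 tags or more, 16 (12.4%) held an ISRE core and 39 (30.2%) an EICE.

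Among peaks above the median tag count of the list, 109 of the 591 places remained. There the difference did not pass Fisher's exact test for the ISRE core (12.8% and 16.4%, adjusted p = 0.499), the AP-1 site (4.59% and 12.1%, adjusted p = 0.0787), or the ETS site (5.50% and 10.7%, adjusted p = 0.246). In the lower group by tags the ETS difference also missed the threshold (4.56% and 8.52%, exact, adjusted p = 0.0654).

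**Figure D3:**
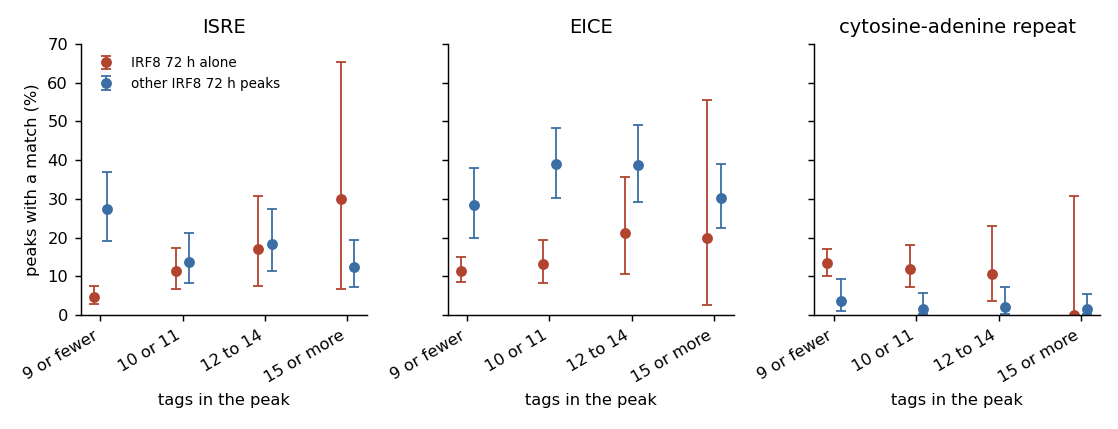
Share of peaks (vertical axis, percent) with an ISRE core, an EICE or a CA repeat, by whole tags in the peak (horizontal axis), for the 591 places (red) and the other IRF8 72 h peaks (blue), with 95% exact binomial intervals. The ISRE shares are 4.8% and 27.4% at 9 tags or fewer and 11.3% and 13.8% at 10 or 11 tags, while the EICE share of the places is the lower one in each group by tags.

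The letters inside the elements were also counted. Of the 76 places with an EICE, 39 (51.3%) had GGAAGTGAAA nearest to the peak centre, against 56 of 155 other peaks (36.1%). The form GGAACTGAAA was found in 6 places (7.89%) and in 45 other peaks (29.0%). Of the 47 places with an ISRE core, 9 (19.1%) had GAAAGTGAAA and 3 (6.38%) GAAACTGAAA, against 25 (31.3%) and 16 (20%) of 80 other peaks. These forms were picked after their counts had been seen, and no test was made.

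At least 2 ISRE matches were present in 6 places and 30 other peaks, and both an ISRE core and an EICE in 4 places and 16 other peaks. Of composite AP-1-IRF elements, 2 forms were searched: GAAA joined directly to the AP-1 site (11 letters) and GAAA set 4 letters before it (15 letters). Each was found in 0 of 591 places, which allows a share of up to 0.508% by a limit of 3 counts. Among the other peaks the joined form was found in 5 and the spaced form in 1. Forms with GAAA in the reverse orientation, read as TTTC before the site, were not searched. The NF-kB site was found in 3.21% of the places and 6.80% of the other peaks, the octamer ATGCAAAT in 1.35% and 2.41%, and the RUNX site TGTGGT in 17.3% and 20.6%. The E-box CAGCTG was found in 7.95% of the places, 13.2% of the other peaks and 7.26% of the genome windows. The box CCAAT was found in 20.8% of the places, 18.4% of the other peaks and 29.6% of the genome windows, and the CTCF site in 0.846%, 0.219% and 0.0955%. These further sites were not tested.

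IRF4 peaks at 72 h that overlapped no other list, 251 in number, were chosen by the same rule from a list of the same caller. Their ISRE share was 6.37%, and the difference from the 591 places did not pass the test (odds ratio 1.27, adjusted p = 0.508, Fisher's exact test). Their EICE share of 19.9% was higher than the 12.9% of the IRF8 places (exact, odds ratio 0.593, adjusted p = 0.0147). That call was lost in a window of 50 bp on each side (12.7% and 10.3%, adjusted p = 0.384 by the same exact test). It was also lost in the upper group by tags (30% and 20.2%, exact, adjusted p = 0.360), with the GC list left out of the rule (21.1% and 15.7%, exact, adjusted p = 0.0770) and without windows that hold a tandem run (20.4% and 14.6%, exact, adjusted p = 0.0617).

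AP-1 sites were present in 12% of the IRF4 places and 4.91% of the IRF8 places (odds ratio 0.380, Fisher's exact test, adjusted p = 9.867e-04). In the upper group by tags this difference missed the threshold (14% and 4.59%, exact, adjusted p = 0.118). ETS sites were present in 8.76% and 4.74% (exact, adjusted p = 0.0454), a call that did not hold under 4 of the alternatives. In the upper group by tags its direction turned (2.00% and 5.50%, exact, adjusted p = 0.499).

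Runs of short repeated units were more frequent near the centres of the 591 places than in the sets compared. A tandem run of at least 24 bases with a unit of 1 to 6 bases was present in 120 places (20.3%). It was present in 37 of 456 other IRF8 72 h peaks (8.11%), 16 of 251 IRF4 places (6.37%), 5.08% of the flanks and 4.93% of the genome windows. The tests of tandem runs were added after the pattern had been seen in these data. The odds ratio was 2.89 against the other peaks (Fisher's exact test, adjusted p = 3.954e-08) and 3.74 against the IRF4 places (exact, adjusted p = 1.413e-07). The difference from the flanks gave an adjusted p of 1.901e-14 (exact McNemar), with adjustment over the 6 added tests.

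Most of these runs were CA repeats. They were present in 74 places (12.5%), 10 other peaks (2.19%), 7 IRF4 places (2.79%), 2.03% of the flanks and 1.63% of the genome windows. The odds ratio was 6.38 against the other peaks (Fisher's exact test, adjusted p = 2.586e-10) and 4.99 against the IRF4 places (exact, adjusted p = 2.629e-06). The flanks differed as well (exact McNemar, adjusted p = 1.312e-12). Adenine runs were found in 20 places and 2 other peaks, and runs of guanine and adenine in 18 places and 5 other peaks. Runs of all other units were found in 8 places (1.35%) and 20 other peaks (4.39%).

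**Figure D4:**
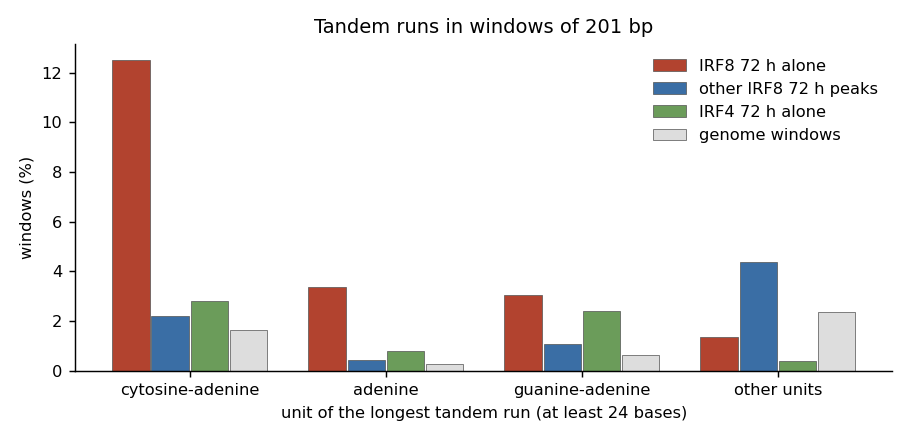
Share of 201 bp windows (vertical axis, percent) whose longest tandem run has at least 24 bases, by the unit of that run (horizontal axis), in the 591 places, the other IRF8 72 h peaks, the IRF4 72 h peaks in no other list and windows over the genome. The cytosine-adenine share is 12.5% in the 591 places and 1.63% to 2.79% in the other 3 sets.

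The places with a CA repeat had low tag counts. Their normalised tag counts ranged from 22.8 to 42.4 with a median of 29.4, the same median as that of all 591 places. The share with a CA repeat was 13.3% at 9 tags or fewer, 11.9% at 10 or 11 tags, 10.6% at 12 to 14 tags and 0 of 10 places at 15 tags or more. In the other peaks it was 3.77%, 1.63% and 2.04% in the first 3 of these groups. Above the median tag count the CA repeat share was 8.26% in the places and 1.79% in the other peaks, a difference that passed the test (Fisher's exact test, adjusted p = 0.0260). It was 0% in the IRF4 places (exact, adjusted p = 0.115) and 0.917% in the flanks (exact, adjusted p = 0.0645), and these calls were lost. The share with any tandem run was then 11% in the places, and all 3 of its calls were lost: 10.0% in the other peaks (exact, adjusted p = 0.853), 4% in the IRF4 places (exact, adjusted p = 0.274) and 3.67% in the flanks (exact, adjusted p = 0.115).

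Of the 74 places with a CA repeat, 5 held an ISRE core and 2 an EICE. Over all 591 places, 47 (7.95%) held an ISRE core and 76 (12.9%) an EICE. Whether the elements avoid CA repeats was not tested. Of these 74 places, 6 were multi-copy. That call rests on the median word of 24 bases in the window, and the longest of these runs had 56 bases. Such a run holds a minority of the words in its window, so it cannot set the median by itself. Runs of the same kind, with at least 24 bases, were found in 2089 of 127769 genome windows (1.63%). Words of 24 bases inside the runs therefore also occur elsewhere, although most of these windows count as single-copy. How tags were placed at the runs was not tested. Without windows that hold a tandem run, the EICE difference against the IRF4 places was the call among the planned tests that lost significance, as given above.

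Across the 1000 bp around the centres, EICEs of the places were concentrated at the middle. They were found in 4.06% and 6.77% of the places in the 2 bins of 50 bp next to the centre and in 0.169% to 0.846% in the bins beyond 100 bp. CA repeats spread further: 2.37% to 6.94% of the places had one in the 8 bins within 200 bp, and 0.508% to 1.35% in the bins beyond. In the other peaks the CA repeat share was 0.661% to 2.20% in all bins. The median distance of the ISRE core from the centre was 36.5 bp in the places and 16.5 bp in the other peaks, and that of the EICE 22.0 bp and 15.5 bp.

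**Figure D5:**
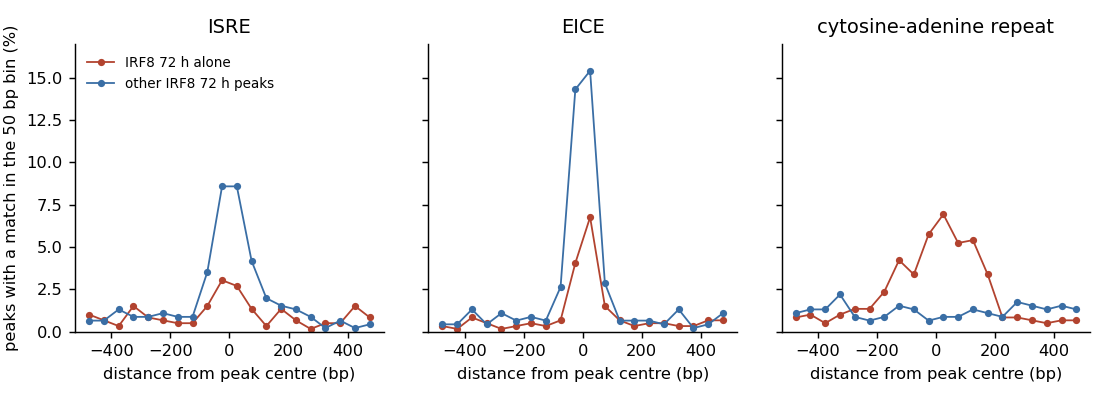
Share of peaks (vertical axis, percent) with an ISRE core, an EICE or a CA repeat in bins of 50 bp, by distance from the peak centre in bp (horizontal axis), for the 591 places (red) and the other IRF8 72 h peaks (blue). An ISRE core or EICE is placed by its midpoint and a CA repeat counts in each bin it touches; the CA repeat share of the places reaches 6.94% next to the centre.

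Unlike the tandem runs, the share of multi-copy windows did not differ by the test between the places and the other peaks. A window was called multi-copy when its median word of 24 bases occurred more than 1 time on either strand. This held for 73 of 591 places (12.4%) and 60 of 456 other peaks (13.2%; odds ratio 0.930, Fisher's exact test, adjusted p = 0.709). The interval of each share covers the other (9.81% to 15.3% and 10.2% to 16.6%). In the lower group by tags the direction turned, with 12.2% of the places and 5.68% of the other peaks (exact, adjusted p = 0.0208). It also turned for words found more than 10 times (6.43% and 4.17%, exact, adjusted p = 0.139) and without tandem runs (11.9% and 10.3%, exact, adjusted p = 0.457). The IRF4 places held 6 multi-copy windows of 251 (2.39%), fewer than the IRF8 places (exact, odds ratio 5.75, adjusted p = 3.833e-06).

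Tags from copies of a sequence cannot be told apart by their letters, so multi-copy places are uncertain. They include the highest count of all, 91.3 normalised tags at chr11:3026969-3027469 in an exon of the non-coding Pisd-ps1 transcript, nearest to the centrosomal gene Sfi1. The next, at 78.3, lay at chr4:3651740-3652240 in an intron of Lyn, a kinase of the B cell receptor pathway; its window held an ISRE core, an EICE and a guanine-adenine run of 44 bases, and its median word occurred 2 times. The place nearest to Ccdc59, at 39.1 normalised tags, had a median word found 11675.5 times, the most of all places. It lay 95.4 kb from that gene's start.

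Most of the places lay away from gene starts. Introns held 286 (48.4%), intergenic DNA 275 (46.5%), untranslated regions 13 (2.20%), coding exons 9 (1.52%) and exons of non-coding transcripts 8 (1.35%). For the other IRF8 72 h peaks these shares were 42.5%, 50.1%, 4.81%, 1.31% and 1.31% in that order, and location was not tested. The median distance to the nearest protein-coding start was 17986 bp, against 15882 bp for the other IRF8 72 h peaks and 11849 bp for the IRF4 places. On chromosome X lay 2 places (0.338%), a chromosome with 6.31% of the length searched; it held 4 of the other IRF8 72 h peaks and 0 of the IRF4 places.

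Promoter places, with a centre within 1000 bp of a protein-coding start, numbered 41 (6.94%). The other IRF8 72 h peaks held 62 of 457 (13.6%; odds ratio 0.475, Fisher's exact test, adjusted p = 9.867e-04). With the GC list left out of the rule the shares were 9.62% and 10.2% (exact, adjusted p = 0.745), and above the median tag count they were 11% and 12.8% (exact, adjusted p = 0.781), so this call was lost in both cases. Of the other peaks that overlapped the GC list 19.3% were promoter peaks, and of those that overlapped LPS lists alone 9.02%. The IRF4 places held 55 promoter peaks of 251 (21.9%; odds ratio 0.266, exact, adjusted p = 1.311e-08), a call that was lost above the median tag count (20.0% and 11%, exact, adjusted p = 0.253). An ISRE core was present in 5 promoter places and in 29 promoter peaks of the rest of the list.

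The strongest single-copy places lay near genes of varied function. Ppfibp2, a liprin of cell adhesion, had a place at chr7:114737434-114737934 with 78.3 normalised tags (exact Poisson interval 50.2 to 116), 0.881 kb upstream of its start. Rock2, a kinase of the actin cytoskeleton, had one at chr12:16877598-16878098 with 75 (47.6 to 113), 23.9 kb upstream, with the ISRE core printed above. Ptk2b, a focal adhesion family kinase, had one at chr14:66807614-66808114 with 75, in its intron. Osbpl3, a lipid-binding protein, had an intronic place at 58.7 with an ETS site.

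Parp1, which modifies proteins at DNA breaks, had a coding exon place at 52.2, with its EICE and ETS site. Gm17511, a predicted gene, had one at 52.2 with none of the elements, 1697 bp from an interval of another list. Mybpc1, a muscle myosin-binding protein, had one at 48.9 in its intron. The last 5 of the 12 came from 8 places tied at 45.7 (25 to 76.6) and were near Ston2, an endocytosis adaptor, Agtpbp1, a tubulin carboxypeptidase, Naa16, a subunit of an acetyltransferase, Fam111a, a protease, and Snx5, a sorting nexin. Of these 12 places, 2 held an ISRE core, 3 an EICE, and 0 a tandem run of 24 bases. The 3 tied places left out lay near Pmp2, Tmem68 and Rab30, and that near Tmem68 held an EICE and a run of 38 bases.

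The highest promoter places after Ppfibp2 lay near 4930485B16Rik (42.4, with an EICE), Fam179a (42.4), the splicing factor gene Mbnl1 (42.4, with an ETS site) and Il18r1 (39.1), the receptor of interleukin 18, which is tied with the promoter places of Rbm43 and Trim21. Members with an ISRE core at 42.4 also lay in an intron of Lcmt1, a methyltransferase acting on protein phosphatase 2A. At 39.1 one lay in the untranslated region of Rbm43. The place near Ccdc121, at 45.7, held both an ISRE core and an EICE, 105 kb from that gene's start.

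Within 50 kb of a protein-coding start lay 431 places (72.9%), against 367 other peaks (80.3%), and they were nearest to 422 genes. Of these genes 9 had 2 places each, among them Acadsb, Adnp2, Icam2, Mtap, Stat3, Taf8, Tgfb2 and Trim25. Of the 422 genes, 21 (4.98%) were also nearest to another IRF8 72 h peak. Over all 22208 protein-coding genes, 349 (1.57%) were nearest to another IRF8 72 h peak within 50 kb. A peak of any other list was nearest to 108 of the 422 genes (25.6%), against 10.4% of all protein-coding genes. Nearness to a gene does not show that the gene is a target, and no expression was measured here.

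Among 36 interferon-stimulated antiviral genes, 4 (11.1%) were nearest to a place, against 1.90% of all protein-coding genes, and 1 (Parp9) to another IRF8 72 h peak. Trim21, a ubiquitin ligase that senses antibody-coated virus, had a place at chr7:109713749-109714249 with 39.1 normalised tags (20.2 to 68.4), 16 bp upstream of its start. Trim25, a ubiquitin ligase of the RIG-I pathway, had a promoter place at chr11:88860510-88861010 with 32.6 and an EICE, and another at 32.6 that lay 24.5 kb downstream on a CA repeat of 49 bases. Isg20, an exonuclease acting on viral RNA, had a place at chr7:86057238-86057738 with 26.1 and an EICE, 0.822 kb upstream, 436 bp from a GC interval. Rnf213, a large ubiquitin ligase, had one in a coding exon at 29.4 with an ETS site.

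Of 17 interferon-induced GTPases, 1 (5.88%) was nearest to a place, Gbp4 with 29.4 normalised tags 80 bp upstream of its start. That window's median word occurred 2 times, and the Gbp genes are similar in sequence, so the place is uncertain. The other IRF8 72 h peaks were nearest to 4 genes of that list: Gbp3, Gbp7, Irgm1 and Irgm2. For the 9 genes of the IRF family, 19 of MHC class I processing and 13 of MHC class II presentation, the counts were 0 for the places. The other peaks were nearest to 3 (33.3%), 5 (26.3%) and 5 (38.5%) of them in that order. Over all protein-coding genes the shares were 1.90% for the places and 1.57% (349 genes) for the other peaks. For the places, a count of 0 in lists of this size is near the share over all genes. For the other peaks, the shares in these lists lay above it.

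Of 22 B lineage transcription factors 3 (13.6%) were nearest to a place and 5 (22.7%) to another peak. The Bach2 place, at chr4:32474783-32475283 with 42.4 normalised tags, held an EICE beside its CA repeat of 43 bases; Bach2 is a repressor that holds back plasma cell formation. The Etv6 place, at chr6:134175527-134176027 with 32.6, lay in an intron of this ETS family repressor. The Runx1 place, at 26.1, was multi-copy and had none of the elements.

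Of 29 genes of B cell receptor signalling 4 (13.8%) were nearest to a place and 8 (27.6%) to another peak. Besides Lyn these were Inpp5d, a phosphatase that dampens the receptor signal, with a place at 26.1 at its start and an AP-1 site; Lat2, an adaptor, at 32.6; and Vav2, an exchange factor, at 29.4. Inpp5d and Lat2 were also nearest to another IRF8 72 h peak. Of 21 germinal centre and activation genes 1 (4.76%) was nearest to a place, against 1.90% of all protein-coding genes. This was Cxcr5, the follicle-homing receptor, with a place at 35.9 and an AP-1 site. That place lay 23 bp from the Cxcr5 start and 3660 bp from an interval of another list.

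In the remaining lists, the share of genes nearest to a place was 6.06% for Toll-like receptor and NF-kappaB genes and 8% for apoptosis genes. It was 4.35% for myeloid and dendritic cell genes and 6.25% for AP-1 and BATF family genes. Over all protein-coding genes it was 1.90%, and these list shares rest on 1 or 2 genes each. Toll-like receptor and NF-kappaB genes had 2 of 33: Tlr1, a receptor of bacterial lipopeptides, at 29.4 with an EICE, and Traf6, its signalling ligase, at 29.4 on a CA repeat of 53 bases. Apoptosis genes had 2 of 25: Bcl2l11, which encodes the killer protein BIM, at 32.6 with an AP-1 site, and Mcl1, a survival protein, at 29.4 with an AP-1 site and a CA repeat of 28 bases. Myeloid and dendritic cell genes had 1 of 23, Ncf4, a subunit of the phagocyte oxidase, at 29.4 with the EICE printed above. AP-1 and BATF family genes had 1 of 16, again Bach2, and plasma cell genes (14) and Myc and cell cycle genes (22) had 0. Beside these, the other IRF8 72 h peaks were nearest to 1, 0, 0, 2, 1 and 1 genes of the 6 lists in that order, and to 2 germinal centre and activation genes.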

How the data were processed

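Members and gene lists were chosen with earlier results of these data known. The 4 LPS lists came from HOMER findPeaks, per the file headers, which give 500 bp peaks, a Poisson p-value limit of 1.000e-04 and a fold of at least 4, both against the local 10000 bp. The deposited signal is the normalised tag count per 10000000 tags. Dividing out the scaling gave whole tags within 0.05 for 100% of peaks. The deposited focus ratio is a fraction, the findPeaks score a tag number, the folds are the authors' ratios and the p-value of a peak is the authors' own; none was tested. The GC list holds positions alone, called with MACS per the labels. Headers name no input control. The submitters' processing notes name BWA, Bowtie2 and mm9, without saying which program aligned which library.

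Overlaps, distances and motifs were computed with Python 3.11.15, numpy 2.4.6, pandas 2.3.3, scipy 1.17.1 and samtools 1.23.1 on NCBIM37 with GENCODE M1. Nearest genes are protein-coding genes with the closest start. Left out were 11 IRF8 72 h peaks off chromosomes 1 to 19 and X, and 1 window with incomplete sequence. Shares were tested with two-sided Fisher's exact tests, and against flanks with exact McNemar tests. Intervals are exact Clopper-Pearson and Poisson intervals at 95%. The procedure was tested on simulated data.

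Named members were the 12 highest single-copy places with a start within 50 kb, the 8 highest with an ISRE core, the 8 highest with an EICE, the 5 highest promoter and the 5 highest multi-copy places, and all nearest to a listed gene. The text gives the members of each group it turns on; places at the rule's edge, CA repeat examples and genes with 2 places were named outside this rule, and 1 gene with 2 places is not reported here. Ties in tag count were broken by chromosome name. Alternatives were a 50 bp window, the whole peak of 500 bp, flanks 2000 bp upstream, places over 1000 bp from every other interval, wider promoters, single-copy peaks, peaks above or below the median tag count, a rule without the GC list, a stricter copy number, and, added later, no windows with tandem runs.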

Additional observations from a re-analysis of the deposited data

Results flagged for a closer look

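Outside the chromosomes used above, 2 IRF8 72 h peaks on sequence without a placed chromosome also overlapped no other list. Each had a normalised tag count of 26.1. They stand here as a signal in peaks that no comparison used. With no position on a chromosome, they were given no gene or sequence element.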

How the results depend on the processing

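Of 118 values recomputed under the settings listed above, 97 kept their direction and side of the threshold, 16 kept the direction and lost the call, and 5 changed direction; of 32 for the tandem run and CA repeat shares 27 kept both and 5 lost the call. Differences are percentage points, places minus the set compared. Above the median tag count, with 109 places, they were -3.58 for the ISRE core, -7.56 for AP-1, -5.21 for ETS and -1.80 for promoters against the other IRF8 72 h peaks, -9.82 for EICE, -9.41 for AP-1, 3.50 for ETS (turned) and -8.99 for promoters against the IRF4 places, and 5.50 for ETS against the flanks. At or below it they were -3.96 for ETS and 6.56 for multi-copy sequence (turned) against the other peaks. With the LPS lists alone in the rule they were 2.02 for the ISRE core (turned) and -0.600 for promoters against the other peaks, and -5.35 for EICE and -2.92 for ETS against the IRF4 places. In windows of 50 bp on each side they were -2.43 for EICE and -2.19 for ETS against the IRF4 places, and with single-copy peaks -3.57 for ETS. Multi-copy sequence against the other peaks turned to 2.26 for words found more than 10 times and to 1.63 without tandem runs, where EICE against the IRF4 places was -5.78. The causes were not tested. No pairing of samples was possible because each group is 1 library, and the McNemar tests pair each place with its own flank. Depth limits single peaks: a median place rests on 9 tags.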
